A study of Mus musculus with 7 samples.

Results

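The proteasome is the protease that degrades most short-lived and damaged proteins marked with ubiquitin. Its 20S core is a barrel of alpha and beta rings, capped by a 19S regulator whose ATPases unfold substrates and whose other subunits recognise and remove ubiquitin. Cells exposed to interferon replace the standard catalytic subunits Psmb5, Psmb6 and Psmb7 with Psmb8, Psmb9 and Psmb10, which gives the immunoproteasome and changes the peptides offered on class I molecules. Members were all mouse genes named Psma, Psmb, Psmc, Psmd, Psme or Psmg plus a number that a probe reached through its accession, with no use of measured values. The rule gave 46 genes, read by 56 probes, of 21154 named genes and 55681 probes on the array, and Psmb8, Psmb9 and Psmb10 were set apart as the inducible subunits. The other 43 genes are called constitutive here as a label only. They include Psma8 and Psmb11, which are known as subunits of the germ line and of the thymus, and the interferon-inducible activator gene Psme1. Of 47 genes that carry such a name in the gene table, 46 had a probe, the exception being Psme2.

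The series asked, by its title, what β-catenin activation does in the dermal sheath, the mesenchymal coat of the hair follicle. A total of 4 control mice gave 3 arrays, of which array 3 pooled 2 mice. A total of 6 cΔex3 mice, in whose cells β-catenin was activated per the titles, gave 4 arrays, of which arrays 2 and 3 each pooled 2 mice. All samples are labelled as dermal sheath cells taken from back skin at postnatal day 15, sorted for YFP and against 3 surface markers, namely CD34, ITGα8 and alkaline phosphatase (ALP). The Cre driver, the strain and the genotype of the controls are not given in the sources used here. Each array measured amplified RNA of 1 sample with a single dye, the 75th percentile of the signal ran from 756 to 907 on the control-labelled and from 1348 to 2160 on the cΔex3-labelled arrays, and the number of arrays limits the precision.

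Of the marker lists measured, the highest sums belonged to tissues other than the labelled one on both groups of arrays. The summed signal of 15 hepatocyte markers lay between 4467 and 5876 times the array's 75th percentile on the control-labelled arrays and between 8.45 and 34.8 times on the cΔex3-labelled arrays, where 15 of 15 were lower. The 10 adipocyte markers summed to between 46.2 and 125 on the former and between 877 and 1860 on the latter. The 6 dermal sheath markers summed to between 20.9 and 28.9 against 64.1 to 130, and Col11a1 was above background on 0 of 3 control-labelled arrays. Liver and fat transcripts moved with the labels, each difference below stands between arrays as labelled, and the part of the tissue mixture in it was not tested. Tissue and label cannot be told apart here. In RNA from a mixture, fewer cells of a type and less RNA per cell cannot be told apart.

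**Figure D1:**
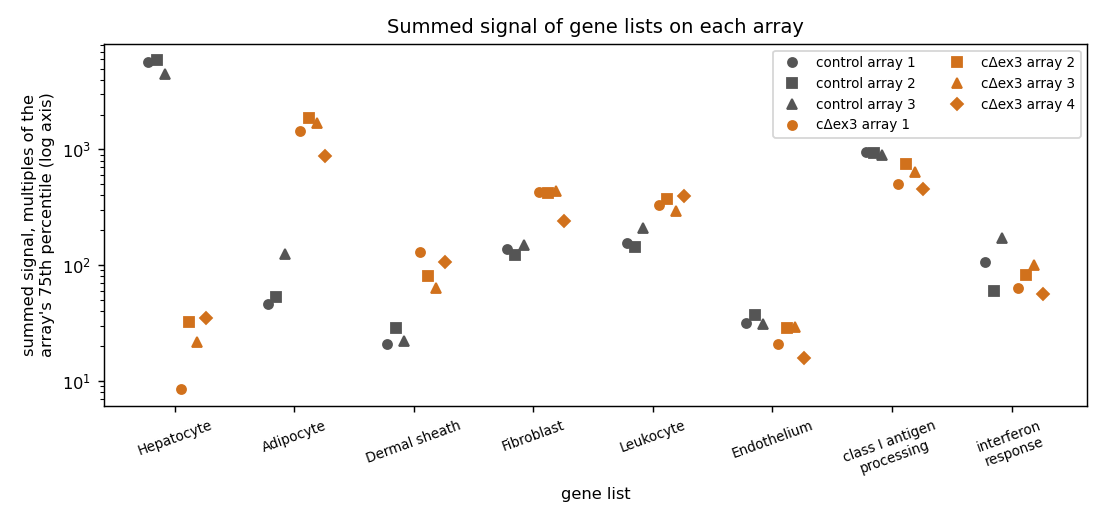
Summed processed signal of 8 gene lists on each array, in multiples of the array's 75th percentile on a log axis, with control-labelled arrays in grey, cΔex3-labelled arrays in orange and a symbol per array number. The hepatocyte sum was 4467 or more on the 3 control-labelled arrays and 34.8 or less on the 4 cΔex3-labelled arrays, the adipocyte sum went the other way, and the interferon response sums overlapped.

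Constitutive proteasome genes were lower together on the cΔex3-labelled arrays. Of 42 tested, 30 passed the threshold as lower and 0 as higher (limma, adjusted p under 0.05, n = 3 and 4; at an unadjusted p under 0.05 the counts were 33 and 0). Over all 18031 genes tested, 29.0% were called lower and 24.0% higher, 53.1% in all. The median difference of the constitutive members was −0.87 on the log2 scale against −0.08 for all genes, and 40 of 42 members were negative, the exceptions being Psmb2 and Psmd10. The groups' arrays did not overlap for 34 of the 42, where 58.7% of all genes did not overlap. Most members moved by a like amount: 32 of the 42 differences lay between −1.5 and −0.5, and 15 of the members above background on all 7 arrays were at least 2-fold lower.

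How many members were called rested on the scaling of the arrays. With quantile normalization, which gives every array the same distribution of signals, 11 of 42 were lower and 0 higher and the median was −0.21, against 0.13 for all genes. In the authors' deposited series table, whose columns also share a distribution, 12 were lower and 0 higher and the median was −0.23, against 0.11. Relative to the median of all genes, the members' median was −0.79 with the 75th percentile, −0.34 with quantile normalization and −0.34 in the deposited table, and 39, 35 and 34 of 42 members lay below that of all genes. Bright genes as a class were lower: among the 4508 genes with the highest mean signal, which held 32 constitutive members, the median was −0.39 and 38.1% were called lower, against −0.87 and 25 of 32 for these members. The 11 members called lower in all 20 alternative settings were Psma4, Psmb7, Psmc4, Psmd6, Psmd9, Psmd11, Psmd12, Psme3, Psme4, Psmg2 and Psmg3. They come from the 20S rings, the 19S cap, the activators and the chaperones.

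**Figure D2:**
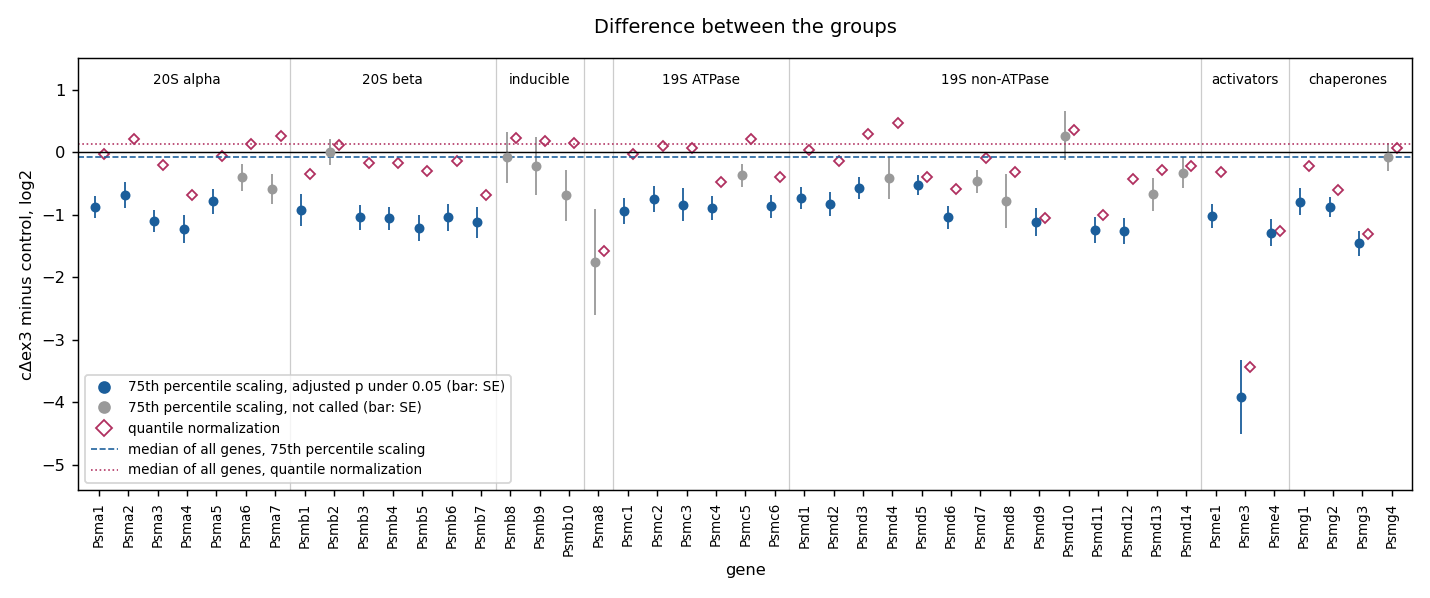
Difference of each tested proteasome gene, cΔex3-labelled minus control-labelled in log2 units, with filled points and SE bars for the 75th percentile scaling (blue where the adjusted p was under 0.05) and open diamonds for quantile normalization. Blue points fill most role groups, the 3 inducible subunits stay grey, diamonds sit higher for most genes, and Psme3 stands far below the rest in both.

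The alpha subunits, which form the outer rings of the core and gate its entry, counted 5 lower of 7. Beside this and each role group's count below stands the 29.0% of all genes called lower. Psma4 read 4.61, 4.57 and 4.35 on control-labelled arrays 1 to 3 and 3.23, 3.56, 3.53 and 2.80 on cΔex3-labelled arrays 1 to 4, all relative to the array's 75th percentile on the log2 scale. The groups were apart, with a difference of −1.23 ± 0.23 (SE; limma adjusted p = 0.00399), the gene's other probe gave −1.32, and quantile normalization gave −0.68. Psma3 differed by −1.10 ± 0.17 (SE) and Psma1 by −0.88 ± 0.17 (SE), while with quantile normalization they gave −0.20 and −0.04 and neither was called. Psma2, at −0.69, was called lower but stood at 0.22 with quantile normalization and 0.15 in the deposited table, and it also lost the call without control array 1, 2 or 3 or cΔex3 array 1 or 3 (adjusted p = 0.0574 to 0.0894). Psma6 at −0.40 and Psma7 at −0.59 did not pass, and both were positive with quantile normalization, at 0.13 and 0.26.

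Among the beta subunits, which carry the catalytic sites inside the barrel, 6 of 7 standard members were lower. Psmb5, the chymotrypsin-like subunit, read 7.23, 7.20 and 7.35 on the control-labelled and 5.77, 6.47, 6.05 and 5.90 on the cΔex3-labelled arrays. No arrays overlapped, and the difference was −1.21 ± 0.21 (SE; limma adjusted p = 0.00275), equal to a 2.31-fold lower signal, with −1.21 for its other probe and −0.30 (adjusted p = 0.182) with quantile normalization. Psmb6, the caspase-like subunit, read 6.93, 6.91 and 6.78 against 5.69, 6.28, 5.81 and 5.53, a difference of −1.04 ± 0.21 (SE; adjusted p = 0.00593) that was −0.14 and not called with quantile normalization. Psmb7, the trypsin-like subunit, read 3.66, 3.92 and 3.64 against 2.31, 2.96, 2.95 and 2.25, and its fall of 1.12 ± 0.25 (SE; adjusted p = 0.00792) was called under every setting, at −0.69 with quantile normalization. The signals of all 3 genes were lower on each cΔex3-labelled array than on any control-labelled array. Psmb1, Psmb3 and Psmb4 were also called, at −0.92, −1.04 and −1.06, but not with quantile normalization, at −0.36, −0.18 and −0.17. Psmb2, a non-catalytic subunit, was the exception: it read 1.08, 1.11 and 0.77 against 0.78, 1.36, 1.06 and 0.78, overlapping throughout, with a difference of 0.01 ± 0.21 (SE) whose sign changed with the setting.

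None of the 3 inducible subunits passed the test, and their arrays overlapped between the groups. Psmb8 read 2.93, 2.25 and 2.85 on the control-labelled and 2.62, 3.29, 2.87 and 1.59 on the cΔex3-labelled arrays. The highest and the lowest value both belonged to the cΔex3-labelled group, on arrays 2 and 4. The difference was −0.08 ± 0.41 (SE; 95% interval −1.06 to 0.90; limma adjusted p = 0.879), with a sign that turned with quantile normalization (0.23). Psmb9 read 3.60, 2.51 and 3.55 against 3.03, 3.71, 3.23 and 2.02, a difference of −0.22 ± 0.46 (SE; 95% interval −1.30 to 0.86; adjusted p = 0.705), or 0.18 with quantile normalization. Psmb10 read 5.71, 5.57 and 5.66 against 4.89, 5.68, 5.32 and 3.93, a difference of −0.69 ± 0.40 (SE; 95% interval −1.64 to 0.26; adjusted p = 0.184), or 0.15 with quantile normalization. These intervals reach past −1 for each of the 3, and so include a fall as large as the median fall of the core. On the cΔex3-labelled arrays the SD of the 3 genes was 0.72, 0.71 and 0.75, against a median of 0.29 for the constitutive members and 0.40 for all genes. Such a spread was not particular to them, since Psmd8 had 0.82, Psme3 0.79, Psma8 0.76 and Psmd10 0.71. On the control-labelled arrays the SD was 0.37 for Psmb8, 0.62 for Psmb9 and 0.073 for Psmb10, against a median of 0.10 for the constitutive members and 0.23 for all genes.

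Set against the core on the same array, a difference that no scaling by a single factor per array can change, Psmb8, Psmb9 and Psmb10 were higher on 3 of the 4 cΔex3-labelled arrays. The reference was the median of Psma1 to Psma7 and Psmb1 to Psmb7 on each array, which was 5.68, 5.82 and 5.80 on the control-labelled and 4.68, 5.10, 4.94 and 4.65 on the cΔex3-labelled arrays. Relative to it, Psmb8 stood at −2.76, −3.57 and −2.95 on the control-labelled and at −2.06, −1.81, −2.07 and −3.07 on the cΔex3-labelled arrays. Psmb9 stood at −2.08, −3.31 and −2.25 against −1.65, −1.39, −1.70 and −2.63. Arrays 1 to 3 of the cΔex3-labelled group lay above every control-labelled array for both genes, and array 4 lay within the control range. Psmb10 stood at 0.03, −0.26 and −0.14 against 0.20, 0.58, 0.38 and −0.72, so that arrays 1 to 3 again lay above every control-labelled array and array 4 lay below them all. The mean shift relative to the core was 0.84 for Psmb8, 0.70 for Psmb9 and 0.23 for Psmb10, against −0.29 for Psmb5, −0.12 for Psmb6 and −0.20 for Psmb7. Psmb5, Psmb6 and Psmb7 are themselves in the reference and the inducible subunits are not, so the 2 sets of shifts are not like for like. An upward shift was not particular to the inducible subunits, since Psmd10 stood 1.19, Psmb2 0.93 and Psmg4 0.85 higher relative to the core, and these shifts were not tested. Taken as the fitted difference minus the median difference of the 14 core genes, the values for Psmb8, Psmb9 and Psmb10 were 0.90, 0.76 and 0.29. They were 0.39, 0.33 and 0.31 with quantile normalization, 0.64, 0.35 and 0.20 without control array 2, and 1.16, 1.01 and 0.55 without cΔex3 array 4.

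**Figure D3:**
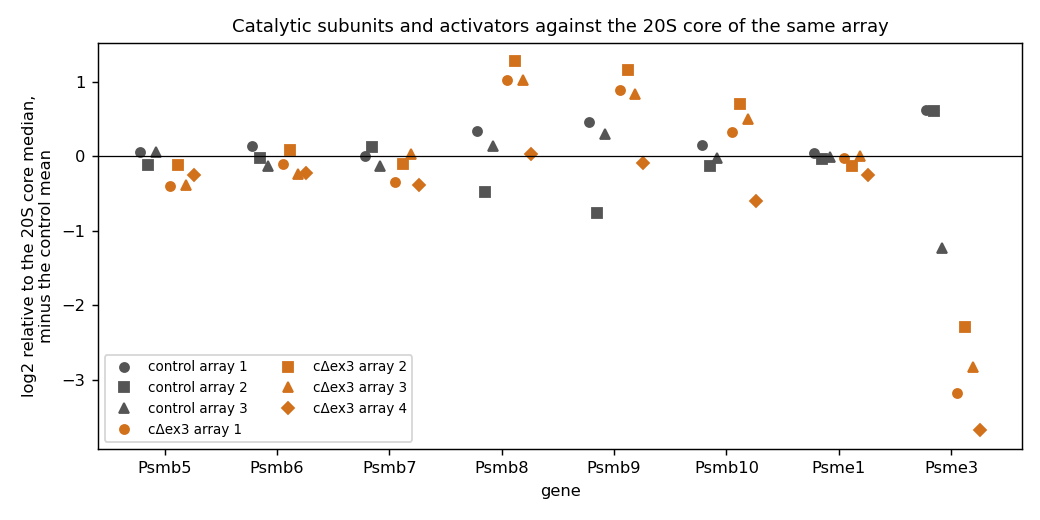
Level of 8 proteasome genes on each array relative to the median of 14 core subunits on the same array, in log2 units with the control mean of each gene set to 0. Psmb8 and Psmb9 lie above all control-labelled arrays (grey) on cΔex3-labelled arrays 1 to 3 (orange) but not on array 4, Psmb5, Psmb6, Psmb7 and Psme1 stay within 0.5 of 0, and Psme3 lies far below on the cΔex3-labelled arrays. Psmb5, Psmb6 and Psmb7 are among the 14 core subunits of the reference.

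The promoters of Psmb5, Psmb6, Psmb8 and Psmb9 are shown because these are 4 of the 6 genes exchanged between the standard core and the immunoproteasome; those of Psmb7 and Psmb10 are not shown. Each is the stretch of up to 250 bases before the annotated start, from RefSeq on GRCm38.p6, 5′ to 3′ on the gene's strand, clipped where another gene begins. The windows are chr14:54617996-54618245 on the minus strand for Psmb5, chr11:70525107-70525356 on the plus strand for Psmb6, chr17:34197945-34198194 on the plus strand for Psmb8 and chr17:34187331-34187555 on the minus strand for Psmb9. Capitals mark matches, on either strand, to the antioxidant response element TGACNNNGC, which binds Nfe2l1 and Nfe2l2, in Psmb5 and Psmb6, to the STAT site TTCNNNGAA in Psmb8 and to CCAAT in Psmb9.
Psmb5: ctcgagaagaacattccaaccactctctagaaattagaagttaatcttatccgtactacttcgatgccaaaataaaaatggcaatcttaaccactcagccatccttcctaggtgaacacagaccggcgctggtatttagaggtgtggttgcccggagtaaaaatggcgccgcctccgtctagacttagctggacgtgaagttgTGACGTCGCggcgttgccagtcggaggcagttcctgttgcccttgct
Psmb6: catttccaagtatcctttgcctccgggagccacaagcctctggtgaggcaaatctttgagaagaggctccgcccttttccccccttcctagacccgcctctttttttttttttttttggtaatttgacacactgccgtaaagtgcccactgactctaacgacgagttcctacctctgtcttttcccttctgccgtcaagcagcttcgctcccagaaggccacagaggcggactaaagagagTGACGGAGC
Psmb8: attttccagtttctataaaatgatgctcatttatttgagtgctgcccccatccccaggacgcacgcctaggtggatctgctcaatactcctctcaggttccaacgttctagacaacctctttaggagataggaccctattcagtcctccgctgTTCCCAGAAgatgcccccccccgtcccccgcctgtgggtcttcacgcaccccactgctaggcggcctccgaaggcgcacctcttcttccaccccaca
Psmb9: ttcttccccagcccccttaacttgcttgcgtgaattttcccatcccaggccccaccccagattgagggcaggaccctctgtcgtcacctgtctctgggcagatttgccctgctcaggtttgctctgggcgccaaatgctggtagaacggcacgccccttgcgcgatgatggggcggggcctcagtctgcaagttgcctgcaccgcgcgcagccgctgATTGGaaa
Over full windows of 250 bases, TGACNNNGC was found in 10.2% of 32536 promoters and in 5 of the 36 other than inducible genes of the name rule with a promoter in the table, Psmb5, Psmb6, Psmc6, Psmd9 and Psmd12. TTCNNNGAA was found in 7.04% of promoters and, among the members, in Psmb8 and Psmg1. CCAAT was found in 33.8% of promoters and in 13 of the 36, and the interferon-stimulated response element (ISRE) in 2.98% and in Psmb3, Psmd4 and Psmd9. A match describes the letters alone, and no factor's binding was measured.

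The ATPases of the 19S base, which thread substrates into the core, counted 5 lower of 6. Psmc4 read 3.50, 3.60 and 3.65 on the control-labelled and 2.40, 2.94, 2.86 and 2.54 on the cΔex3-labelled arrays. The groups were apart by −0.90 ± 0.19 (SE; limma adjusted p = 0.00656), a call kept under every setting, at −0.47 with quantile normalization. Psmc1 differed by −0.94, Psmc6 by −0.87, Psmc3 by −0.84 and Psmc2 by −0.75, all called. With quantile normalization Psmc2 and Psmc3 turned to 0.09 and 0.07, Psmc1 was at −0.03, and Psmc6 was at −0.39, none called. Psmc3 lost its call in 10 of 20 other settings and its other probe gave −0.53 without a call. Psmc5, at −0.37, did not pass.

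Of the 14 Psmd genes, named for the non-ATPase subunits of the 19S particle, 8 were lower, beside 29.0% of all genes. They include Psmd5, Psmd9 and Psmd10, which are chaperones of its base. Psmd12, a lid scaffold subunit, read 5.75, 5.80 and 5.76 against 4.32, 4.76, 4.76 and 4.19, and Psmd11, its neighbour in the lid, read 2.74, 2.87 and 2.68 against 1.48, 1.71, 1.78 and 1.104. In both genes the groups were apart, with differences of −1.26 ± 0.20 (SE; limma adjusted p = 0.00206) and −1.25 ± 0.21 (SE; adjusted p = 0.00246), and with quantile normalization Psmd12 was −0.43 and still called. Psmd9, an assembly chaperone of the base despite its name, differed by −1.11 ± 0.23 (SE) and −1.64 with its other probe, and Psmd6 by −1.04 ± 0.19 (SE), which was −0.60 with quantile normalization. Psmd1 and Psmd2, the large scaffold subunits of the base, differed by −0.73 and −0.83, but by 0.04 and −0.14 with quantile normalization. The other lower calls were Psmd3 at −0.57, which was 0.29 with quantile normalization and called in 8 of 20 other settings, and Psmd5, a base chaperone, at −0.53, called in 9 of 20. Psmd4, a ubiquitin receptor, at −0.42, Psmd14, the lid's deubiquitinase, at −0.33, Psmd7, Psmd8 and Psmd13 did not pass. Psmd10 (gankyrin), also a base chaperone, was the 1 Psmd gene with a positive difference, at 0.26 ± 0.39 (SE; adjusted p = 0.596). It read 0.88, 0.65 and 0.41 against 0.34, 0.87, 0.50 and 1.92, so that array 4 alone lay above the control range, and without that array the difference was −0.07.

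**Figure D4:**
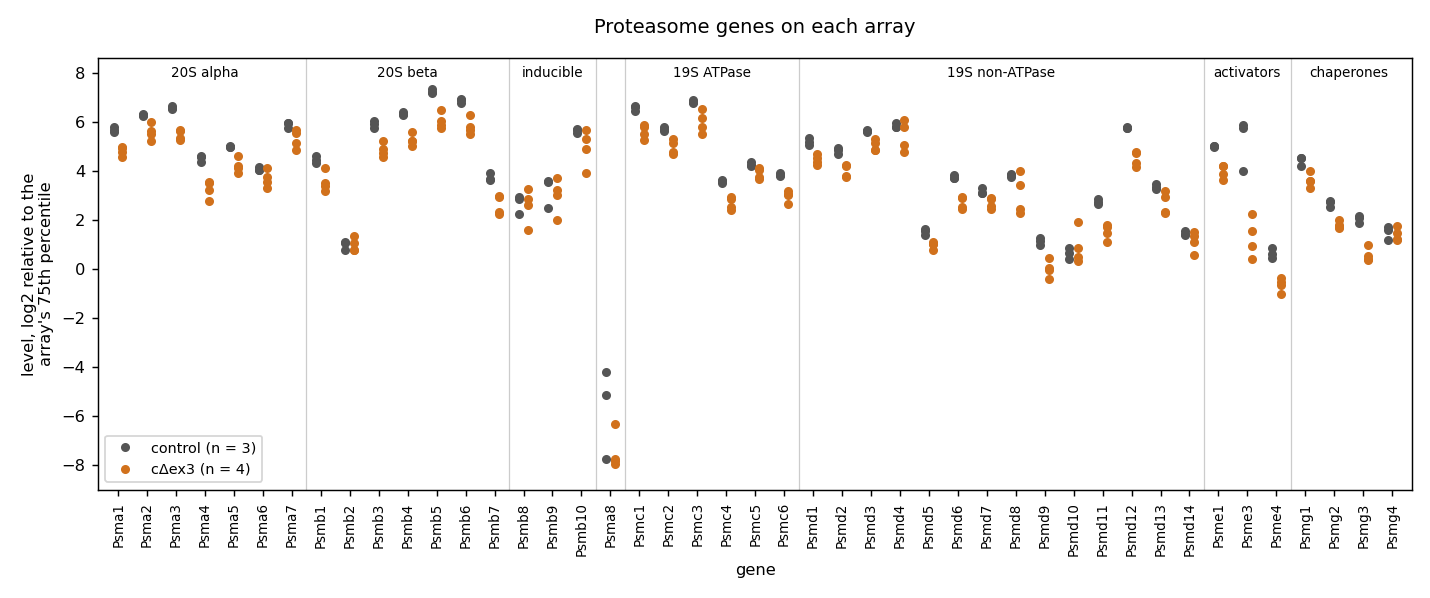
Level of each tested proteasome gene on each array, as log2 relative to the array's 75th percentile, with 3 control-labelled arrays in grey and 4 cΔex3-labelled arrays in orange. Levels of different genes come from different probes and are not compared. Grey points sit tightly above orange points for most genes, whereas the inducible subunits Psmb8 and Psmb9 overlap.

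Activators open the core without a 19S cap, and all 3 with a probe were lower. Psme3, which forms the nuclear PA28γ ring, had the largest difference of the 45 members tested. It read 5.75, 5.87 and 4.00 on the control-labelled and 0.94, 2.24, 1.55 and 0.41 on the cΔex3-labelled arrays. The groups were apart by −3.92 ± 0.60 (SE; limma adjusted p = 0.00169), a 15.2-fold lower signal, and the difference ran from −5.13 to −3.42 over the other settings. Control array 3 was the lowest of its group for Psme3 and the highest of its group in the adipocyte sum. Among the cΔex3-labelled arrays the order went the other way, with array 2 highest and array 4 lowest for both Psme3 and the adipocyte sum. The part of the tissue mixture in the difference of Psme3 was not tested. Of the 18031 genes, 662 fell by as much or more. Psme3 was read by 1 probe, and its neighbours on the chromosome are Becn1 and Aoc2. Psme4 (PA200) read 0.44, 0.85 and 0.63 against −0.66, −1.03, −0.36 and −0.54, a difference of −1.29 ± 0.21 (SE; adjusted p = 0.00233), with −0.81 for its other probe. Psme1, the interferon-inducible PA28α, was lower like the core: it read 4.98, 5.03 and 5.03 against 3.90, 4.22, 4.19 and 3.65, a difference of −1.02 ± 0.19 (SE; adjusted p = 0.00405), and −0.32 (adjusted p = 0.108) with quantile normalization. Relative to the core it shifted by −0.10.

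Of the chaperones that build the 20S rings, 3 of 4 were lower. Psmg3 read 2.08, 2.16 and 1.87 against 0.39, 0.99, 0.54 and 0.39, with a difference of −1.46 ± 0.20 (SE; limma adjusted p = 0.00118), and its partner Psmg4 read 1.58, 1.18 and 1.71 against 1.17, 1.77, 1.49 and 1.23, with a difference of −0.08 ± 0.22 (SE; adjusted p = 0.792). The pair forms 1 complex, and its members' differences lay far apart under quantile normalization too, at −1.32 and 0.06. Psmg2 differed by −0.88 ± 0.16 (SE) and its partner Psmg1 by −0.79 ± 0.21 (SE), the latter at −0.23 and not called with quantile normalization.

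The 2 tissue-restricted subunits were at or near background. Psma8 was well above background on 2 of 3 control-labelled and 1 of 4 cΔex3-labelled arrays and differed by −1.76 ± 0.85 (SE; limma adjusted p = 0.123). Psmb11 was above background on 0 of 7 arrays and was not tested. Among the 7 germ cell markers, Prm1 was higher by 7.95 and Tnp1 by 2.83 on the cΔex3-labelled arrays, while Psma8 was not higher there. Ddx4, Sycp3 and Acrv1 were not called, and Sycp1 and Dmc1 were above background on too few arrays to be tested.

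Of 15 proteasome-associated genes tested, 5 were lower and 1 higher, with a median of −0.37, beside 29.0% lower and 24.0% higher over all genes, so the share of lower calls was near that of all genes. Here and in the other gene lists outside the name rule, differences and calls are given for the main scaling alone. Whether they hold with quantile normalization or in the deposited table was not tested. Pomp, the maturation factor of the core, read 6.14, 6.16 and 6.05 against 4.57, 5.41, 5.16 and 4.59, a difference of −1.18 ± 0.25 (SE; limma adjusted p = 0.00687). The ubiquitin shuttle gene Rad23b fell by 1.36, the proteasome-bound thioredoxin gene Txnl1 by 1.27 and the ubiquitin receptor gene Adrm1 by 0.92. Uchl5, a deubiquitinase of the cap, fell by 0.65, and the shuttle gene Ubqln2 was 0.77 higher. Of 6 regulators of supply 3 were lower and 0 higher (4 and 1 at an unadjusted p under 0.05). Ddi2, the protease that activates Nfe2l1, read 2.08, 2.30 and 1.90 against −0.48, −0.41, −0.54 and −0.61, a difference of −2.61 ± 0.16 (SE; adjusted p = 4.12e-05). Ngly1, which deglycosylates Nfe2l1, fell by 1.00 and Vcp, which extracts it from the membrane, by 0.65. Nfe2l1 itself, the transcription factor that raises proteasome genes when the protease is short, differed by 0.78 ± 0.29 (SE; adjusted p = 0.059), and its relative Nfe2l2, which responds to oxidative stress, by −0.71 ± 0.26 (SE; adjusted p = 0.0523).

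Class I antigen processing is the pathway the immunoproteasome feeds. Of 12 genes 5 were lower and 1 higher, with a median of −0.46. The 6 calls together come close to the 53.1% called over all genes. By direction, the share of lower calls was larger than the 29.0% of all genes, and that of higher calls smaller than the 24.0%. Erap1, which trims peptides, fell by 1.39, the chaperone gene Calr by 1.19 and Pdia3 by 1.14, the class I chain genes H2-K1 by 0.87 and B2m by 0.84, whereas Tapbp (tapasin) was 0.62 higher. These calls were not tested with quantile normalization, with which the constitutive proteasome members called lower went from 30 to 11. Tap1 and Tap2, the peptide transporter genes that neighbour Psmb8 and Psmb9, are given for their position. Tap1 read −1.44, −2.13 and −1.20 against −1.46, −0.66, −1.24 and −2.77, and Tap2 read 3.76, 3.25 and 3.84 against 4.11, 4.48, 4.43 and 2.88. Both were lowest on cΔex3-labelled array 4 and highest on array 2, as Psmb8 and Psmb9 were, and control array 2 was the lowest of its group for all 4 genes. The order of the cΔex3-labelled arrays was not particular to these genes. The core median, B2m and H2-K1 too were highest on cΔex3-labelled array 2 and lowest on array 4. Neither Tap1 nor Tap2 passed, at 0.06 ± 0.51 (SE) and 0.36 ± 0.42 (SE).

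Interferon and leukocyte genes were measured beside the inducible subunits. Of 15 interferon response genes 2 were higher and 3 lower (limma), with a median of −0.55, both smaller shares than the 24.0% and 29.0% of all genes. Gbp2 and Ciita were higher by 1.97 and 1.16, while Usp18 fell by 2.14, Irf7 by 1.58 and Cxcl10 by 2.31. Whether these calls hold with quantile normalization was not tested either. The list's sum was 106, 60.2 and 170 on the control-labelled and 63.9, 82.9, 100.4 and 55.9 on the cΔex3-labelled arrays, so that control array 2 and cΔex3 array 4 were the lowest of their groups, as they were for Psmb8 and Psmb9. The core median was also lowest of its group on cΔex3 array 4. Leukocyte markers summed to between 143 and 210 against 291 to 395, with 5 of 14 higher and 2 lower. The highest sum, 395, was on cΔex3-labelled array 4, where Psmb8, Psmb9 and Psmb10 were lowest. That sum rested on the marker Cd52, which read 7.90 there against 4.33 to 4.57 on arrays 1 to 3. Ptprc, the gene of the common leukocyte antigen CD45, was lowest on that array, with −1.61 against −0.32, −0.82 and −0.40 on arrays 1 to 3. All the other markers of the list except Cd3e and Cd79a were likewise lowest of their group on cΔex3-labelled array 4. The part of leukocytes or of the interferon response in the level of Psmb8, Psmb9 and Psmb10 was not tested.

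Within both rows of the slide the constitutive median was negative. In the upper row, with 2 control-labelled arrays and 1 cΔex3-labelled array, the constitutive median difference was −1.08, and in the lower row, with 1 and 3, it was −0.79, against −0.11 and −0.07 for all genes. Psmb8 gave 0.03 and −0.27 in the rows, Psmb9 −0.02 and −0.56, and Psmb10 −0.75 and −0.69.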

How the data were processed

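Per the labels' protocols, RNA of sorted cells was amplified, labelled with Cy3 and hybridised to a mouse expression array, with 1 array per sample. Per the file headers, the deposited intensity (processed signal) came from Agilent Feature Extraction 10.7.1.1, background-subtracted and not normalised between arrays; deposited flags per spot are other values of 0 or 1. The authors' deposited series table holds log2 values with column medians between 7.407 and 7.413; how it was made is not given in the sources used here, its columns correlated at 0.9999 with normexp and quantile-normalised values of the same arrays, and it served as an alternative.

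Each value is the log2 processed signal scaled by subtracting the 75th percentile of its array, so that an equal signal reads lower on the cΔex3-labelled arrays, whose percentile was higher. Spots with outlier flags were left out and spots of 1 probe averaged. Probes were named by accession through a RefSeq table (28026 of 55681), kept if well above background on 3 or more arrays, and the brightest probe was used per gene, giving 18031 genes. Of 46 members, 45 were tested, 44 of them above background on all 7 arrays; 10 had several probes. The test was limma 3.58.1 (lmFit, eBayes, two-sided, Benjamini-Hochberg over all genes, threshold 0.05) in R 4.3.3; all p-values for genes come from limma. The steps were tested on simulated data. By their labels the samples come from separate mice.

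Named members were, by rule, the catalytic, tissue-restricted and activator genes and the 3 highest and 3 lowest differences of each role group, and in other lists the up to 3 smallest p. Psmd1, Psmd2, Psmd3, Psmd5, Psmd6, Psmd7, Psmd8, Psmd13, Adrm1, Uchl5, Ubqln2, Nfe2l1, Tapbp, H2-K1, B2m, Ciita, Cxcl10, Tap1, Tap2, Prm1, Tnp1, Sycp3, Acrv1, Sycp1, Dmc1, Ptprc, Cd52, Cd79a, Nfe2l2 and Col11a1 were named after their values were seen. Members and lists were chosen with earlier results of these data known, and the split by mean signal was added after seeing the data. The other marker lists gave fibroblast 6 higher of 6, endothelium 3 higher and 1 lower of 6, keratinocyte 0 of 4 called (0 at an unadjusted p under 0.05), germ cell 2 higher of 5 and thymic epithelium 1 lower of 1. The planned mean spot signal was not used; normexp ran on the median signal. Slide rows come from the file headers, whose positions do not match the file names for 4 arrays. The list of ubiquitin and activating enzyme genes is not reported here.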

Additional observations from a re-analysis of the deposited data

Results flagged for a closer look

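Among the 36 proteasome genes named by rule, 1 had a cΔex3-labelled array far from the other 3 of its group, where chance gives about 1 in 20 groups. Psma8 read −6.34 on cΔex3-labelled array 1, the 1 array of that group where it was well above background, against −7.96, −7.84 and −7.74 on arrays 2 to 4.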

How the results depend on the processing

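All 20 alternatives kept 0 constitutive members called higher, and the counts of all genes ranged from 2989 to 5165 higher and from 3753 to 6297 lower. Quantile normalization and the deposited table moved the count of constitutive members called lower to 11 and 12 and their median to −0.21 and −0.23; the cause was not tested. Quantile normalization moved the split of all calls to 54.3% higher, from 45.3%, and normexp to 35.5%. Among the 36 genes named by rule, signs reversed with quantile normalization for Psma2 (0.22), Psma6 (0.13), Psma7 (0.26), Psmb8 (0.23), Psmb9 (0.18), Psmb10 (0.15), Psmc2 (0.091), Psmc3 (0.071), Psmc5 (0.21), Psmd4 (0.46) and Psmg4 (0.065), and in the deposited table for the same genes (0.15, 0.14, 0.26, 0.23, 0.19, 0.26, 0.11, 0.075, 0.17, 0.44 and 0.10). Outside that rule, Psmd3 gave 0.29 and 0.24 and Psmd1 0.04 and −0.01. With the percentile over probes above background on all arrays, Psmb8 gave 0.082 and Psmg4 0.090. Psmb2 gave −0.030 with normexp, −0.014 with array medians and −0.31 with arrays of 1 mouse. Leaving out 1 array at a time gave 22 to 32 members called lower, medians of −0.96 to −0.78, and −0.32 to 0.25 for Psmb8, −0.58 to 0.10 for Psmb9, −0.11 to 0.081 for Psmb2, −0.074 to 0.45 for Psmd10 and −0.23 to 0.032 for Psmg4. Same-numbered arrays deviated from their group means with correlations of −0.0089, −0.00092 and 0.018, and arrays of unlike number with −0.091 to 0.089. So few arrays cannot exclude a pairing by number, and the main fit used none. With the replicate block 26 members were lower, 4493 genes higher and 4981 lower, and Psmb8, Psmb9 and Psmd10 gave 0.25, 0.10 and −0.074. Over the 36 genes in all alternatives, 44 values lost and 4 gained a call without a change of sign. For Psma8 and Psmb11 the signal over background is the limit.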
